A study of Homo sapiens with 12 samples.

Results

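CXCL8, CCL2, IL6, VCAM1, ACKR3 and PLAU are 6 genes for secreted inflammatory signals and for the surface and protease proteins that act with them: 2 chemokines, 1 cytokine, 1 adhesion molecule, 1 chemokine receptor and the urokinase protease. They were followed in U251, a human glioblastoma cell line, on Affymetrix expression arrays. Every probe set in the deposited table that the array's annotation gives to exactly 1 of these genes was taken. This made 8 probe sets of the 17313 in that table that name a single gene, and 6 genes of 10346. CXCL8 and PLAU had 2 probe sets each and the other 4 genes had 1. The cells had received an siRNA pool against ETV6, a pool against NFKB1, both pools together (double siRNA below), or a control siRNA with no known human target, each siRNA at 50 nM. The double siRNA cells thus received more siRNA in total than the other groups, and no control group matched that total. The part of this dose in the double siRNA results was not tested. Each of the 4 groups held 3 arrays, 12 in all, with 1 array per sample. An siRNA pool lowers a transcript without removing it, and all results are from 1 cell line. The labels do not say that the 3 samples of a group were separate cultures, so the p-values below measure only the spread between samples, which may be technical.

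Chemokines are small secreted proteins that draw leukocytes along a gradient, and tumour and glial cells release them when NF-kB and AP-1 factors act on their promoters. NFKB1 encodes p105, the precursor of the NF-kB subunit p50, which lacks a transactivation domain and acts in dimers with other subunits. ETV6 is an ETS family factor known as a transcriptional repressor. CXCL8 encodes interleukin 8, which attracts neutrophils, and CCL2 encodes the main attractant of monocytes. IL6 signals through gp130 and STAT3, VCAM1 holds leukocytes that carry the integrin of the ITGA4 and ITGB1 chains, ACKR3 (also called CXCR7) binds CXCL12 and removes it from the surroundings, and PLAU cleaves plasminogen to plasmin at the cell surface.

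Promoter windows from RefSeq (assembly GRCh38.p14, 250 bases before to 50 after a gene start) were available for CXCL8, IL6, VCAM1 and PLAU. The 250 bases before the start are printed for the 3 genes whose windows held an NF-kB match, because NFKB1 was a target of the siRNA. Capitals mark exact matches on either strand to NF-kB (GGANTTTCC or GGANTTCCC), AP-1 (TGANTCA), ETS (CCGGAAG or AGGAAG) and C/EBP (TTGCNNAA) letters, and all 3 sequences lie on the + strand.
CXCL8 promoter, chr4:73740319-73740568: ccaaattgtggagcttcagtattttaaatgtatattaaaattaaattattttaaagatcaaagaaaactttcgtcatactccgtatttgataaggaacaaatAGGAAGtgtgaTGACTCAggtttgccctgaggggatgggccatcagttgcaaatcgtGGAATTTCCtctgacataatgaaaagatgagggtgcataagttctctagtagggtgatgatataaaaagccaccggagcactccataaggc
IL6 promoter, chr7:22726950-22727199: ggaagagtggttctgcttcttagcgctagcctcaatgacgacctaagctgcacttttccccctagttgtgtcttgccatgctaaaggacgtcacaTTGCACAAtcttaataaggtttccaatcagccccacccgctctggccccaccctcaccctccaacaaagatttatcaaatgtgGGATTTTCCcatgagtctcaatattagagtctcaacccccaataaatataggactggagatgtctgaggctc
VCAM1 promoter, chr1:100719492-100719741: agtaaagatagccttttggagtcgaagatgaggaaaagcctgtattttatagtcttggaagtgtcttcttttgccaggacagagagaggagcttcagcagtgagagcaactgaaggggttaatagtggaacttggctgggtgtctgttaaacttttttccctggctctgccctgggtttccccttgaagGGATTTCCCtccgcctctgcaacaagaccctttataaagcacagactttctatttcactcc
In CXCL8 the NF-kB match began 91 bases before the start, the AP-1 match 137 and the ETS match 148 bases before it. In IL6 the NF-kB match began 72 and the C/EBP match 155 bases before the start, and in VCAM1 the NF-kB match began 61 bases before it. The first of 2 PLAU windows held no match, and the second, at chr10:73910882-73911131, held an ETS match 221 and a C/EBP match 122 bases before its start. No match overlapped another. Of all 35116 windows of this length, 1.64% held GGANTTTCC, 1.42% GGANTTCCC, 7.71% TGANTCA, 10.3% CCGGAAG, 33.6% AGGAAG and 10.5% TTGCNNAA. A match describes the letters of the window and does not show that a factor binds there.

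The deposited log2 levels were compared with 1 linear model over all 12 arrays (limma), using the brighter probe set of each gene, and an adjusted p under 0.05 was called. Of the 10346 genes, 7760 were tested, among them all 6 genes described here. They were the genes with a mean log2 level over the 25th percentile of genes (7.54), and NFKB1, which averaged 7.07 and was kept as an siRNA target. VCAM1 averaged 7.79 over all arrays but 7.46 without the double siRNA arrays, so it passed that limit only through the group where it was high. The ETV6 transcript stood at 22.6% of the control siRNA level with ETV6 siRNA and at 35.1% with double siRNA. It was 1.55-fold higher with double siRNA than with ETV6 siRNA (adjusted p = 0.000157). The part of that difference in the results was not tested. With NFKB1 siRNA it changed by -0.18 (adjusted p = 0.206). A second, dimmer ETV6 probe set changed by 0.40 there (adjusted p = 0.00871 in a fit of every probe set). The NFKB1 transcript stood at 60.3% with NFKB1 siRNA (adjusted p = 0.00691) and at 58.8% with double siRNA (adjusted p = 0.00165). Its NFKB1 siRNA arrays were spread, at 6.95, 6.75 and 6.05, so the size of that fall is uncertain. With ETV6 siRNA the NFKB1 transcript stood at 141% of control, a change of 0.50 that was not called (adjusted p = 0.104), though the 2 groups did not overlap. The part of that rise in the ETV6 siRNA results was not tested. The glioma markers GFAP, VIM, FABP7, SOX2, SOX9 and CD44 were at or above the 97th percentile on every array, among the single-gene probe sets of the deposited table. The other 4 measured markers reached down to percentile 80.9 (NES), 78.9 (SLC1A3), 52 (S100B) and 39.3 (CHI3L1). Of these 10 markers 1 was higher and 2 lower with ETV6 siRNA, 1 and 4 with NFKB1 siRNA, and 1 and 4 with double siRNA, where 10.7%, 40.6% and 80.9% of all genes were called. Of 24 markers of immune, endothelial, epithelial, neuronal and oligodendrocyte cells 2 had a single-gene probe set in the deposited table, SYT1 and MBP, both under the level limit. A marker without one may still be on the array, and its level is not known here. SYT1 read 7.14 to 7.32 with ETV6 siRNA, 6.14 to 6.35 with NFKB1 siRNA and 7.77 to 7.79 with double siRNA, against 6.74 to 7.35 with control siRNA. MBP read 7.03 to 7.40 with ETV6 siRNA, 6.27 to 6.50 with NFKB1 siRNA and 7.40 to 7.50 with double siRNA, against 6.58 to 6.85 with control siRNA. Both were lowest with NFKB1 siRNA, MBP was above control siRNA with ETV6 siRNA too, and their part in the results was not tested. The double siRNA arrays also stood apart from the other 9 in measures outside these genes. Their poly-A spike-in probe sets averaged 7.97 to 8.05, against 8.37 to 9.35 on the other arrays. Their medians were 8.34 to 8.38, against 8.08 to 8.28, and the ACTB 3′ minus 5′ difference was 2.05 to 2.16, against 1.52 to 1.91. The part of these differences in the double siRNA results was not tested.

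CXCL8 fell in both groups that received ETV6 siRNA, to 45.6% of the control level with ETV6 siRNA alone and to 50.1% with double siRNA, and NFKB1 siRNA alone gave no called change. It read 8.49, 8.76 and 8.52 with ETV6 siRNA, 9.84, 9.66 and 10.09 with NFKB1 siRNA, 8.54, 9.13 and 8.51 with double siRNA, and 9.83, 9.72 and 9.63 with control siRNA (log2 levels). The ETV6 and double siRNA arrays overlapped each other and lay wholly below the NFKB1 and control siRNA arrays, which overlapped each other too. The group means were 8.59 ± 0.15 with ETV6 siRNA, 9.87 ± 0.22 with NFKB1 siRNA, 8.73 ± 0.35 with double siRNA and 9.72 ± 0.10 with control siRNA (SD, n = 3 each). The change was -1.13 ± 0.16 on the log2 scale with ETV6 siRNA (SE; adjusted p = 0.00143), the eighth lowest change of all genes tested. With double siRNA it was -0.997 ± 0.16 (adjusted p = 0.000118). NFKB1 siRNA alone gave 0.14 ± 0.16 (adjusted p = 0.49). Within a culture, fewer cells making a transcript and less transcript per cell cannot be told apart in such bulk RNA. Adding NFKB1 siRNA to ETV6 siRNA changed CXCL8 by 0.14, with a 95% interval of -0.21 to 0.48 (adjusted p = 0.428), while adding ETV6 siRNA to NFKB1 siRNA changed it by -1.14 (adjusted p = 2.53e-05). The CXCL8 changes of the single siRNAs added up to -0.99 against the measured -0.997, and the interaction was -0.01 with a 95% interval of -0.49 to 0.48.

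The second, dimmer CXCL8 probe set gave the same order of groups. It read 6.69, 6.63 and 6.62 with ETV6 siRNA, 7.41, 7.48 and 7.76 with NFKB1 siRNA, 6.60, 7.08 and 6.47 with double siRNA, and 7.61, 7.55 and 7.42 with control siRNA. Its change was -0.88 ± 0.14 with ETV6 siRNA (adjusted p = 0.00338 in the fit of every probe set) and -0.81 with double siRNA (adjusted p = 0.000215). In that fit 8.66% of the 12987 probe sets tested were called with ETV6 siRNA, 39.5% with NFKB1 siRNA and 79.3% with double siRNA. Its NFKB1 siRNA arrays overlapped the control siRNA arrays, at a change of 0.02 (adjusted p = 0.903). This dimmer probe set averaged 7.11 over all arrays, against a level limit of 7.09 in that fit. Its means were 6.65 with ETV6 siRNA and 6.72 with double siRNA. It thus passed the limit only through the NFKB1 and control siRNA arrays, where it was high. Its p-values for the fall are therefore no support of their own. The name of the brighter CXCL8 probe set ends in x_at, the array maker's mark for probes that may also match other transcripts.

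CCL2, the other chemokine, moved in opposite directions with the 2 single siRNAs: it rose 1.57-fold with ETV6 siRNA and fell with NFKB1 siRNA. Its log2 levels were 9.23, 9.07 and 9.22 with ETV6 siRNA, 8.16, 7.91 and 7.87 with NFKB1 siRNA, 8.25, 8.35 and 8.26 with double siRNA, and 8.72, 8.47 and 8.37 with control siRNA. The ETV6 siRNA arrays lay above all others, and the NFKB1 siRNA arrays lay below all ETV6 and control siRNA arrays. The groups averaged 9.17 ± 0.09 with ETV6 siRNA, 7.98 ± 0.16 with NFKB1 siRNA, 8.29 ± 0.05 with double siRNA and 8.52 ± 0.18 with control siRNA (SD, n = 3 each). The change was 0.65 ± 0.10 with ETV6 siRNA (adjusted p = 0.00213), the sixth highest of all genes tested, and -0.54 ± 0.10 with NFKB1 siRNA (adjusted p = 0.00126). With double siRNA it was -0.23 ± 0.10 (adjusted p = 0.0423). That last call was the least stable of the 6 genes with double siRNA: it was lost in 9 of 22 alternatives, with an adjusted p of 0.19 at -0.13 without control siRNA replicate 1, 0.0549 without control siRNA replicate 2, 0.103, 0.0505 and 0.102 without double siRNA replicate 1, 2 or 3, 0.0515 and 0.0519 without ETV6 siRNA replicate 1 or 3, 0.05 without NFKB1 siRNA replicate 2, and 0.054 with only the groups compared in the fit. CCL2 was lower with double siRNA than with ETV6 siRNA alone (log2 change -0.89, adjusted p = 8.42e-06). Between ETV6 siRNA and NFKB1 siRNA the difference was 2.29-fold (log2 change 1.19, adjusted p = 8.92e-06).

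**Figure D1:**
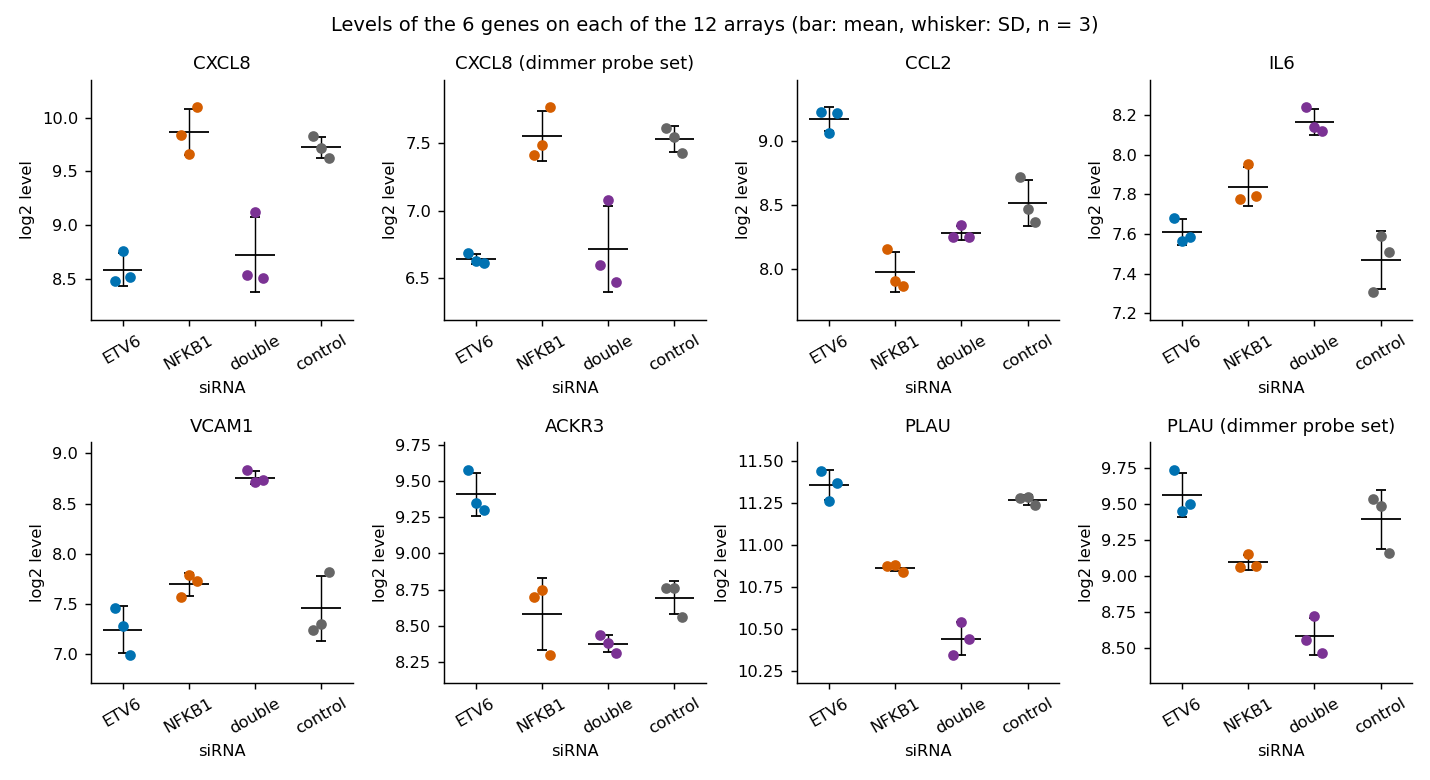
Log2 level (y axis) of the 8 probe sets of CXCL8, CCL2, IL6, VCAM1, ACKR3 and PLAU with ETV6, NFKB1, double and control siRNA (x axis), 1 point per array, with the mean and SD of each group of 3; the y axes differ between panels and do not start at 0. CXCL8 separates the groups with ETV6 siRNA from those without it, VCAM1 is highest on the 3 double siRNA arrays (8.71 to 8.83), and ACKR3 is high on the 3 ETV6 siRNA arrays (9.30 to 9.58).

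IL6 was highest with double siRNA and rose with NFKB1 siRNA as well, both by under 2-fold. Its log2 levels were 7.68, 7.56 and 7.58 with ETV6 siRNA, 7.77, 7.95 and 7.79 with NFKB1 siRNA, 8.24, 8.14 and 8.12 with double siRNA, and 7.30, 7.59 and 7.51 with control siRNA. The double siRNA arrays lay above all others, the NFKB1 siRNA arrays came next, and the ETV6 siRNA arrays overlapped the control siRNA arrays. The mean was 7.61 ± 0.06 with ETV6 siRNA, 7.84 ± 0.10 with NFKB1 siRNA, 8.17 ± 0.06 with double siRNA and 7.47 ± 0.15 with control siRNA (SD, n = 3 each). IL6 changed by 0.70 ± 0.08 with double siRNA (adjusted p = 1.02e-05), a 1.62-fold rise, and by 0.37 ± 0.08 with NFKB1 siRNA (adjusted p = 0.00303). ETV6 siRNA gave 0.14 ± 0.08 (adjusted p = 0.307). These are levels near the limit below which genes were not tested, since IL6 averaged 7.64 without the double siRNA arrays. Its interaction was 0.18 ± 0.11 (adjusted p = 0.131), and it passed the threshold with array weights (0.27, adjusted p = 0.0125) and without control siRNA replicate 1 (0.27, adjusted p = 0.0202).

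VCAM1, the adhesion molecule, rose 2.47-fold with double siRNA, and neither single siRNA gave a called change. Its log2 levels were 7.46, 7.28 and 6.99 with ETV6 siRNA, 7.57, 7.79 and 7.73 with NFKB1 siRNA, 8.83, 8.71 and 8.73 with double siRNA, and 7.24, 7.30 and 7.82 with control siRNA. The double siRNA arrays stood clear of the other 9, and control siRNA replicate 3 lay above both other control siRNA arrays and above every NFKB1 siRNA array. The means were 7.24 ± 0.24 with ETV6 siRNA, 7.70 ± 0.12 with NFKB1 siRNA, 8.76 ± 0.07 with double siRNA and 7.45 ± 0.32 with control siRNA (SD, n = 3 each). On its array the VCAM1 probe set stood at percentile 57.7 with double siRNA and at percentile 32.7 with control siRNA. The change was 1.30 ± 0.15 with double siRNA (adjusted p = 1.21e-05), -0.21 ± 0.15 with ETV6 siRNA (adjusted p = 0.443) and 0.24 ± 0.15 with NFKB1 siRNA (adjusted p = 0.21). Without control siRNA replicate 3 the NFKB1 siRNA value was 0.42 (adjusted p = 0.0122), and it also passed the threshold without that array and ETV6 siRNA replicate 2 (0.42, adjusted p = 0.0151), with array weights (0.39, adjusted p = 0.00189) and after quantile normalization (0.34, adjusted p = 0.0467). The single siRNA values of VCAM1 added up to 0.03 against the measured 1.30, an interaction of 1.27 ± 0.21 (adjusted p = 0.000146). Since VCAM1 passed the level limit only through its double siRNA arrays, the p-values that use those arrays are no support of their own.

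ACKR3, the scavenging chemokine receptor, was high with ETV6 siRNA and was not high when NFKB1 siRNA was given with it. Its log2 levels were 9.58, 9.35 and 9.30 with ETV6 siRNA, 8.70, 8.75 and 8.30 with NFKB1 siRNA, 8.43, 8.38 and 8.31 with double siRNA, and 8.76, 8.76 and 8.56 with control siRNA. The ETV6 siRNA arrays lay above all others and the double siRNA arrays below all control siRNA arrays, while NFKB1 siRNA overlapped both double and control siRNA. ACKR3 averaged 9.41 ± 0.15 with ETV6 siRNA, 8.58 ± 0.25 with NFKB1 siRNA, 8.38 ± 0.06 with double siRNA and 8.69 ± 0.11 with control siRNA (SD, n = 3 each). The change with ETV6 siRNA was 0.71 ± 0.11 (adjusted p = 0.00306), a 1.64-fold rise and the second highest of all genes tested. With NFKB1 siRNA it was -0.11 ± 0.11 (adjusted p = 0.445). With double siRNA it was -0.32 ± 0.11 (adjusted p = 0.0219), a call lost without control siRNA replicate 1 (adjusted p = 0.0658), control siRNA replicate 2 (0.0681) or double siRNA replicate 3 (0.0693). The single siRNA values of ACKR3 added up to 0.60 against the measured -0.32, an interaction of -0.92 ± 0.16 (adjusted p = 0.000236).

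PLAU, the urokinase gene, fell with NFKB1 siRNA and fell further with double siRNA. Its brighter probe set read 11.44, 11.26 and 11.37 with ETV6 siRNA, 10.87, 10.88 and 10.84 with NFKB1 siRNA, 10.34, 10.54 and 10.44 with double siRNA, and 11.28, 11.29 and 11.24 with control siRNA (log2 levels). The 3 double siRNA arrays were lowest, the 3 NFKB1 siRNA arrays came next, and the ETV6 and control siRNA arrays overlapped above them. PLAU averaged 11.36 ± 0.09 with ETV6 siRNA, 10.87 ± 0.02 with NFKB1 siRNA, 10.44 ± 0.10 with double siRNA and 11.27 ± 0.03 with control siRNA (SD, n = 3 each). The change was 0.09 ± 0.06 with ETV6 siRNA (adjusted p = 0.428), -0.40 ± 0.06 with NFKB1 siRNA (adjusted p = 0.000366) and -0.82 ± 0.06 with double siRNA (adjusted p = 1.34e-06), or 56.5% of the control level. Its interaction was -0.51 ± 0.08 (adjusted p = 0.000158). The dimmer PLAU probe set read 9.74, 9.45 and 9.50 with ETV6 siRNA, 9.07, 9.15 and 9.07 with NFKB1 siRNA, 8.56, 8.72 and 8.47 with double siRNA, and 9.54, 9.49 and 9.16 with control siRNA. It fell too, by 0.30 with NFKB1 siRNA (adjusted p = 0.0435) and by 0.81 with double siRNA (adjusted p = 3.64e-05), and its interaction was -0.68 (adjusted p = 0.00126), in a fit where 85.1% of all probe sets had a called interaction.

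**Figure D2:**
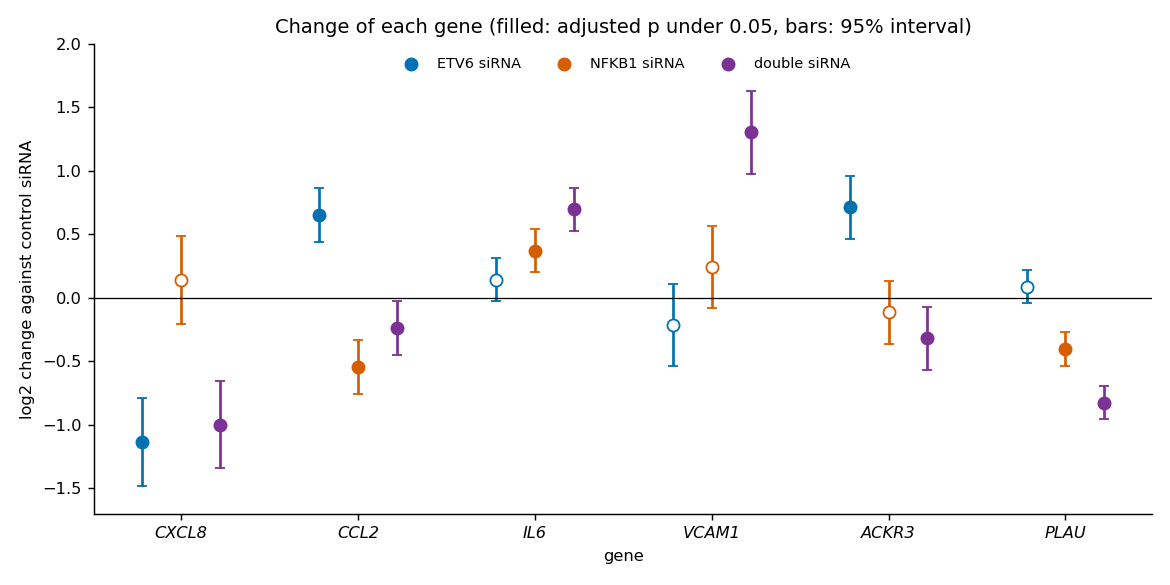
Log2 change (y axis) of each of the 6 genes (x axis) for ETV6 siRNA, NFKB1 siRNA and double siRNA, each against the same 3 control siRNA arrays; bars are 95% intervals from the fit and filled points passed an adjusted p of 0.05. CXCL8 lies near -1 with ETV6 and double siRNA, and of the 3 VCAM1 intervals the one with double siRNA is clear of 0.

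Set against control siRNA, 3 of the 6 genes were called with ETV6 siRNA, 2 higher and 1 lower, where 10.7% of all genes tested were called (4.38% higher and 6.28% lower). With NFKB1 siRNA 3 of 6 were called, 1 higher and 2 lower, where 40.6% of all genes were (15.5% higher and 25.1% lower). Of the calls over all genes with NFKB1 siRNA 38.1% were higher, and 62.2% after each array was shifted to the same median. With double siRNA 6 of 6 were called, 2 higher and 4 lower, where 80.9% of all genes were (31.9% higher and 49% lower), so the count with double siRNA is not read as a result about these genes. VCAM1 was among those 6, and it had passed the level limit only through its double siRNA arrays. These 3 comparisons share the control siRNA arrays, so their values are given side by side and not as separate evidence. The 6 genes were chosen with earlier results of these data known. Their counts here and below thus do not show that they stand out as a group. The median change of all genes was 0.00 with ETV6 siRNA, 0.01 with NFKB1 siRNA and -0.13 with double siRNA, and the last became -0.24 after each array was shifted to the same median. Relative to the median of all genes, the double siRNA changes were -0.87 for CXCL8, -0.10 for CCL2, 0.83 for IL6, 1.43 for VCAM1, -0.19 for ACKR3 and -0.69 for PLAU.

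The double siRNA cells differed from the ETV6 siRNA cells in 5 of the 6 genes, 2 higher and 3 lower, where 86.2% of all genes were called (34.9% higher and 51.2% lower). IL6 was higher by 0.56 (adjusted p = 3.84e-05) and VCAM1 by 1.51 (adjusted p = 4.63e-06), while ACKR3 changed by -1.03 (adjusted p = 8.75e-06) and PLAU by -0.91 (adjusted p = 9.52e-07). CXCL8 was the gene without a call. The double siRNA cells differed from the NFKB1 siRNA cells in 5 of 6 genes, 3 higher and 2 lower, where 89.1% of all genes were called (37.7% higher and 51.4% lower). Neither count of 5 is read as a result about these genes. VCAM1 was higher by 1.06 (adjusted p = 2.67e-05), and PLAU changed by -0.42 (adjusted p = 3.11e-05). VCAM1 had passed the level limit only through its double siRNA arrays, so its p-values in both comparisons are no support of their own. CCL2 was higher by 0.31 (adjusted p = 0.0104) and IL6 by 0.33 (adjusted p = 0.00166), and both calls were lost after each array was shifted to the same median (0.11 and 0.13, adjusted p = 0.305 and 0.133) and after quantile normalization (adjusted p = 0.295 and 0.125). ACKR3 gave -0.21 there (adjusted p = 0.107) and -0.40 after the median shift (adjusted p = 0.00147), and it passed the threshold without NFKB1 siRNA replicate 3 as well (-0.35, adjusted p = 0.0035).

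ETV6 siRNA and NFKB1 siRNA set the 6 genes apart from each other, with 3 higher and 3 lower under ETV6 siRNA, where 34.9% of all genes were called (21.8% higher and 13.1% lower). Of those calls 62.6% were higher, and 37.6% after the median shift. CCL2 and CXCL8 went opposite ways: CCL2 was higher with ETV6 siRNA, as given above, and CXCL8 lower by a log2 change of -1.27 (adjusted p = 0.000149). ACKR3 was higher by 0.83 (adjusted p = 0.000316) and PLAU by 0.49 (adjusted p = 0.000136). The smaller differences were less stable. IL6 at -0.23 (adjusted p = 0.0381) lost its call in 9 of 22 alternatives, with an adjusted p of 0.143 without NFKB1 siRNA replicate 2, 0.125 and 0.099 without ETV6 siRNA replicate 2 or 3, and 0.053 and 0.0515 without double siRNA replicate 2 or 3. VCAM1 at -0.45 (adjusted p = 0.0341) lost its call in 5 alternatives, with an adjusted p of 0.0765 and 0.128 without ETV6 siRNA replicate 2 or 3, and 0.106 and 0.0772 without NFKB1 siRNA replicate 2 or 3.

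Whether a gene responded to an siRNA in the same way with and without the other was read from the interaction: the double siRNA change less the sum of both single siRNA changes, on the log2 scale. It was called for 4 of the 6 genes, 1 higher and 3 lower, where 86.3% of all genes were called (36.5% higher and 49.8% lower). This count is not read as a result about these genes. VCAM1 had the positive interaction, and ACKR3, PLAU and CCL2 had negative ones. VCAM1 had passed the level limit only through its double siRNA arrays, so its p-value is no support of its own. The CCL2 value of -0.35 ± 0.14 (adjusted p = 0.033) was lost in 7 of 21 alternatives, each leaving out 1 array: control siRNA replicate 2 or 3 (adjusted p = 0.0675 and 0.0685), ETV6 siRNA replicate 1 or 3 (0.0713 and 0.0678), NFKB1 siRNA replicate 1 (0.0838), or double siRNA replicate 1 or 3 (0.0654 and 0.0648). The median interaction of all genes was -0.18, and -0.39 after each array was shifted to the same median, so a negative interaction was the common direction among genes.

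**Figure D3:**
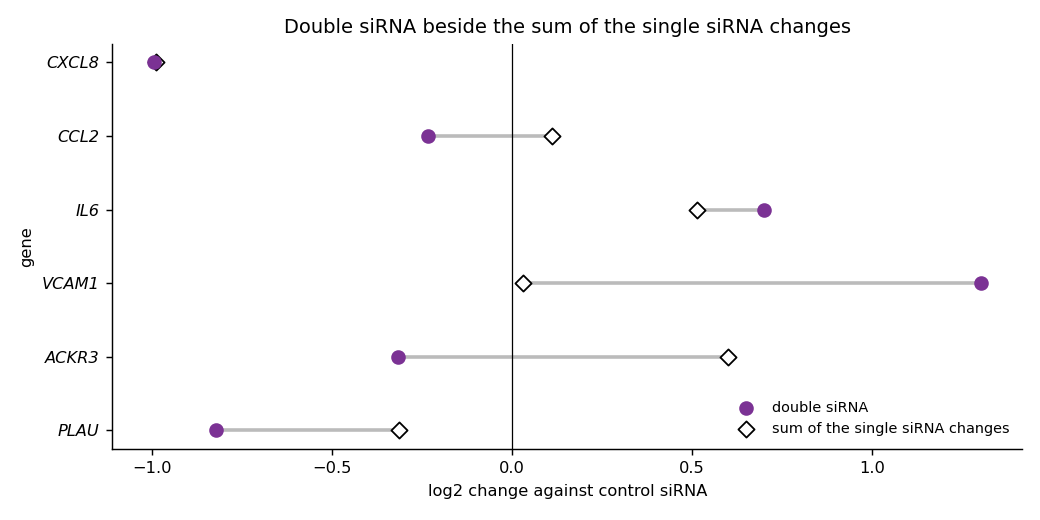
For each gene (y axis), the log2 change with double siRNA (filled circle) and the sum of the ETV6 siRNA and NFKB1 siRNA changes (open diamond) on the x axis, joined by a grey line whose length is the size of the interaction. Both symbols coincide for CXCL8 (-0.997 and -0.99), the circle lies far to the right for VCAM1 (1.30 against 0.03) and far to the left for ACKR3 (-0.32 against 0.60).

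For each of the 6 genes the 3 tested genes with the closest profile were found as those with the smallest root mean square difference in log2 level over the 12 arrays, each gene centred on its own mean. CITED1 was nearest to CXCL8 at a difference of 0.217, against 0.601 for the spread of CXCL8 itself, followed by KLHL7 (0.289) and the immediate early factor EGR1 (0.314). CITED1 changed by -1.19 with ETV6 siRNA and -0.93 with double siRNA. CHI3L1, a secreted glycoprotein of reactive astrocytes and gliomas, was nearest to CCL2 at 0.142, followed by NEFL (0.164) and SGPL1 (0.173). CHI3L1 changed by 0.68 with ETV6 siRNA and -0.47 with NFKB1 siRNA, next to 0.65 and -0.54 for CCL2. SGPL1, which degrades sphingosine 1-phosphate, was also second nearest to ACKR3 (0.114), between AHNAK2 (0.110) and NFASC (0.117). The genes nearest to VCAM1 were ATG12 (0.137), RGS2 (0.141) and INSIG2 (0.156), which changed by 1.23, 1.45 and 1.29 with double siRNA. IL6 was followed by INSIG1 (0.105), TRAPPC2 (0.110) and FBXO8 (0.114), and PLAU by SHB (0.0612), TRIM14 (0.0791) and GLRX5 (0.0821). The points behind each difference are the same 12 arrays, so profiles that follow the double siRNA group also share the differences between arrays given above.

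Among the other ligands few could be read from the deposited table, where a probe set counted only if it named a single gene. A gene without such a probe set may still be on the array. Of 22 listed chemokine ligands 5 had a probe set and 1 was tested, CX3CL1 (fractalkine), which fell with double siRNA (-0.53, adjusted p = 5.39e-05) and gave 0.08 with ETV6 siRNA and 0.17 with NFKB1 siRNA. Of 20 listed chemokine receptors 1 had a probe set and 0 were tested. Of 27 cytokine ligands 6 had a probe set and 2 were tested. CSF1, the macrophage growth factor, rose with ETV6 siRNA (0.40, adjusted p = 0.00662) and fell with double siRNA (-0.34, adjusted p = 0.00119), and IL18 was not called in either.

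Of 32 cytokine receptor and JAK-STAT genes 18 were tested. With ETV6 siRNA 0 were higher and 3 lower, with NFKB1 siRNA 3 higher and 4 lower, and with double siRNA 8 higher and 9 lower, at medians of -0.06, 0.06 and -0.05. These are 3, 7 and 17 of 18 genes called, against 10.7%, 40.6% and 80.9% of all genes. IL6ST, which encodes gp130, the signalling chain of the IL6 receptor, rose with double siRNA (1.42, adjusted p = 1.75e-05) and fell with NFKB1 siRNA (-0.94, adjusted p = 0.00134). Its 4 probe sets gave 0.47 to 1.42 with double siRNA and -1.31 to -0.93 with NFKB1 siRNA. With double siRNA the receptor chains IFNGR1 (0.92) and IL13RA1 (0.83) rose and the transcription factor STAT5B fell (-0.57). With NFKB1 siRNA the kinase TYK2 (0.34) and the STAT inhibitor PIAS3 (0.39) rose and the kinase JAK1 fell (-0.30), though the JAK1 call was lost after each array was shifted to the same median (adjusted p = 0.0535). With ETV6 siRNA the 3 calls were PIAS3 (-0.37), STAT5B (-0.20) and the oncostatin M receptor OSMR (-0.24), and none was stable. The STAT5B call was lost when any array other than control siRNA replicate 3 or NFKB1 siRNA replicate 3 was left out, and the OSMR call when any array other than control siRNA replicate 2 or NFKB1 siRNA replicate 1 or 3 was. With the mean of its probe sets OSMR gave -0.09 (adjusted p = 0.669). The PIAS3 call was lost without control siRNA replicate 2 (adjusted p = 0.0582) or ETV6 siRNA replicate 2 (0.0591) or 3.

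Of 29 adhesion molecules and leukocyte integrins 16 were tested. With ETV6 siRNA 1 was higher and 2 lower, with NFKB1 siRNA 0 higher and 5 lower, and with double siRNA 6 higher and 6 lower, at medians of -0.01, -0.12 and -0.07. These are 3, 5 and 12 of 16 genes called, against 10.7%, 40.6% and 80.9% of all genes. ITGA4, the chain of the integrin that binds VCAM1, was 3.62-fold higher with double siRNA (log2 change 1.86, adjusted p = 2.79e-05). It averaged 9.04 with double siRNA, against 7.18 with control siRNA, 7.23 with ETV6 siRNA and 6.82 with NFKB1 siRNA, so like VCAM1 it passed the level limit of 7.54 only through the double siRNA arrays. Its partner chain ITGB1 rose with double siRNA (0.33, adjusted p = 0.000383) and fell with ETV6 siRNA (-0.63, adjusted p = 0.000237) and with NFKB1 siRNA (-1.07, adjusted p = 1.05e-06). With double siRNA the membrane linker RDX (1.78) and the adhesion molecule ALCAM (1.22) also rose and ICAM3 fell (-0.83). With NFKB1 siRNA ALCAM fell (-0.65), as did the brightest probe sets of ITGA9 (-0.84) and of the hyaluronan receptor CD44 (-0.26). Other probe sets of ITGA9 and CD44 read up to 0.22 and 0.27 there, and the CD44 call was lost with the mean of its probe sets (0.09, adjusted p = 0.174). With ETV6 siRNA MCAM rose (0.30) and ITGA9 fell (-0.28), and the ITGA9 call was lost when any array other than control siRNA replicate 1, ETV6 siRNA replicate 1 or NFKB1 siRNA replicate 1 or 3 was left out, and with the mean of its probe sets (-0.09, adjusted p = 0.29). The split of 0 higher and 5 lower with NFKB1 siRNA became 2 and 4 after each array was shifted to the same median.

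**Figure D4:**
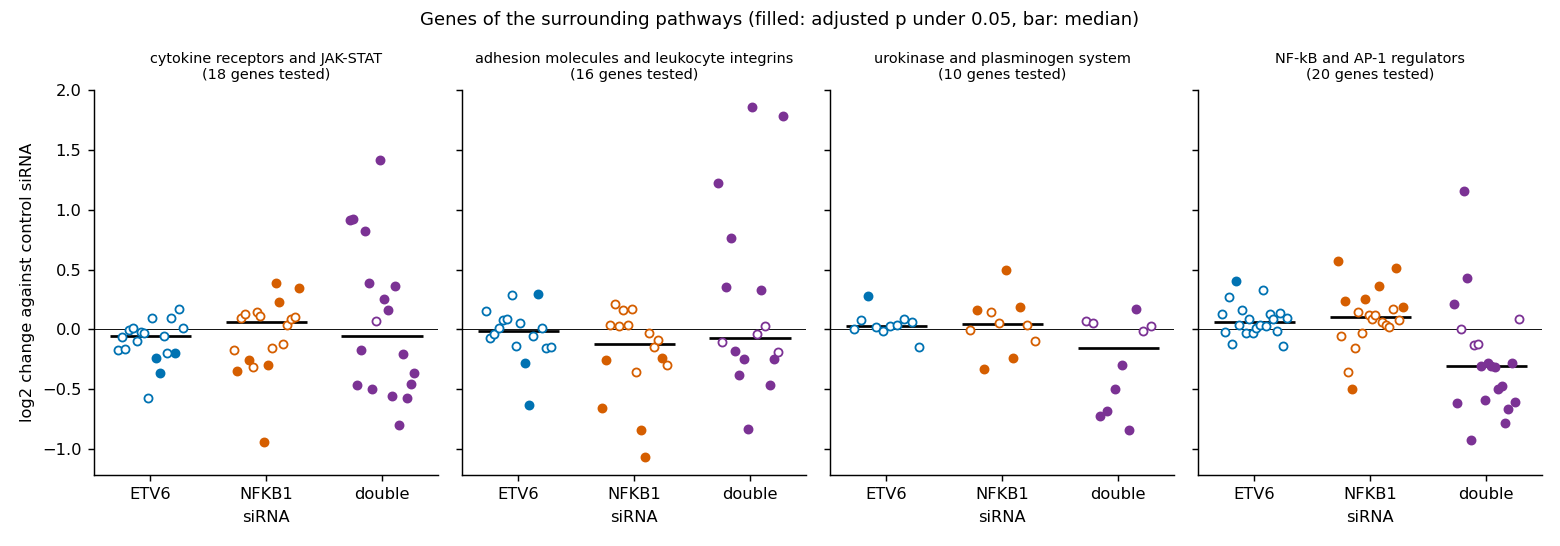
Log2 change against control siRNA (y axis) of each tested gene of 4 lists with ETV6, NFKB1 and double siRNA (x axis), 1 point per gene, filled where the adjusted p was under 0.05, with a bar at the list's median. Points spread most with double siRNA, and in the list of NF-kB and AP-1 regulators 3 filled points lie above 0 and 13 below it there.

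Of 20 urokinase and plasminogen genes 10 were tested. With ETV6 siRNA 1 was higher and 0 lower, with NFKB1 siRNA 3 higher and 2 lower, and with double siRNA 1 higher and 5 lower, at medians of 0.03, 0.04 and -0.16. These are 1, 5 and 6 of 10 genes called, against 10.7%, 40.6% and 80.9% of all genes. PLAUR, which encodes the cell surface receptor of urokinase, fell with double siRNA (-0.84, adjusted p = 5.26e-06), as did the matrix proteases MMP14 (-0.72) and MMP2 (-0.68) and the urokinase receptor partner MRC2 (-0.49). MMP14 fell with NFKB1 siRNA (-0.33) and rose with ETV6 siRNA (0.28). With NFKB1 siRNA the other plasminogen activator, PLAT (0.49), and the plasminogen receptors ENO1 (0.16) and PLGRKT (0.19) rose. The ENO1 call was lost without NFKB1 siRNA replicate 2, and the PLGRKT call without that array, control siRNA replicate 2, or double siRNA replicate 1 or 3.

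Of 31 NF-kB and AP-1 regulators 20 were tested. With ETV6 siRNA 1 was higher and 0 lower, with NFKB1 siRNA 6 higher and 1 lower, and with double siRNA 3 higher and 13 lower, at medians of 0.06, 0.10 and -0.31, against -0.13 for all genes with double siRNA, where 49% of all genes were lower. These are 1, 7 and 16 of 20 genes called, against 10.7%, 40.6% and 80.9% of all genes. With double siRNA the AP-1 subunit FOSL1 fell (-0.92, adjusted p = 1.53e-05), as did the NF-kB inhibitor NFKBIE (-0.78), CEBPB (-0.61), a C/EBP factor that binds the IL6 promoter, and the NF-kB inhibitory adaptor TNIP2 (-0.60). With NFKB1 siRNA ATF3 (0.57), TNIP1 (0.51) and the ubiquitin ligase TRAF6 (0.19) rose and the deubiquitinase CYLD fell (-0.50), with a second TRAF6 probe set at -0.47. With ETV6 siRNA CYLD rose (0.41), a call lost with the mean of its 4 probe sets (0.14, adjusted p = 0.47) and with only the groups compared in the fit (adjusted p = 0.0559). After each array was shifted to the same median, 11 of these genes were higher and 1 lower with NFKB1 siRNA. A fit of only the groups compared also ended the calls of MCAM and MMP14 with ETV6 siRNA and of TRAF6, ENO1 and PLGRKT with NFKB1 siRNA.

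**Figure D5:**
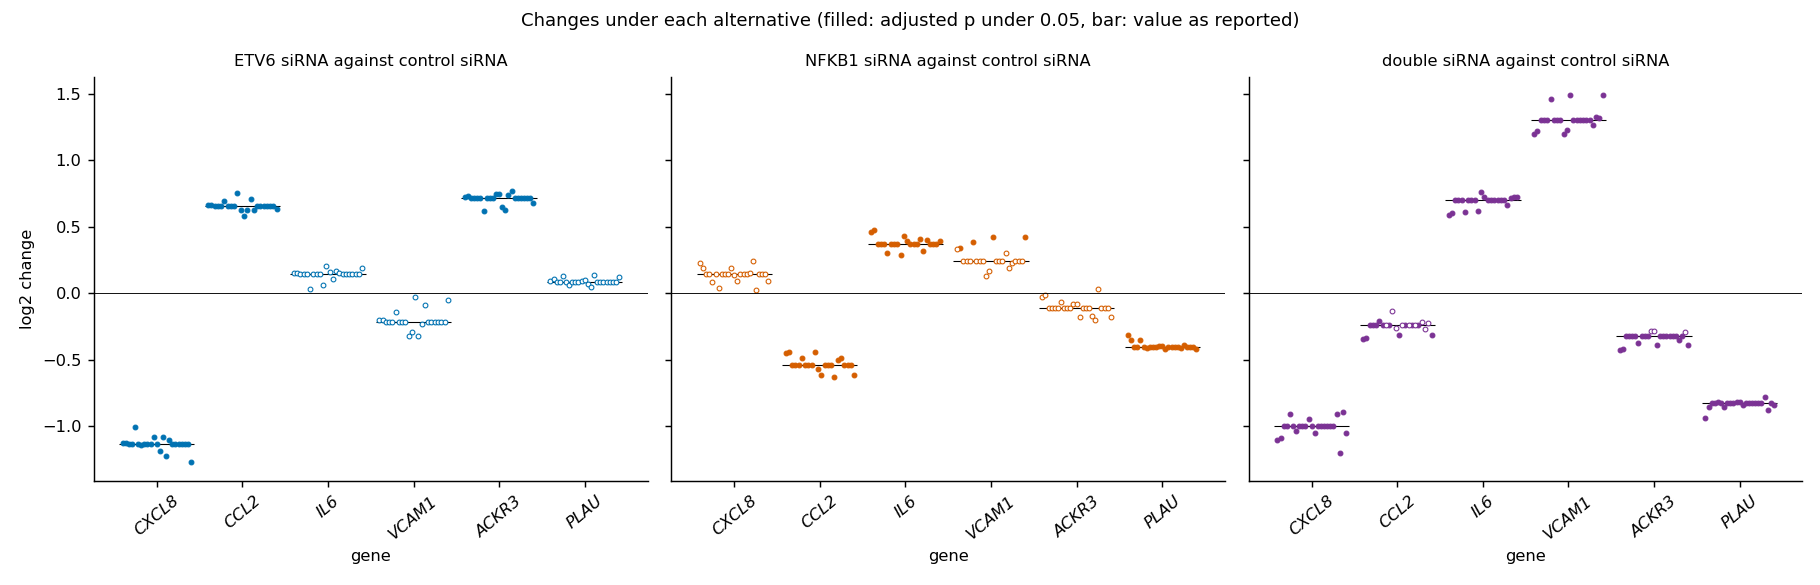
Log2 change of the 6 genes (x axis) with ETV6, NFKB1 and double siRNA against control siRNA, 1 point per alternative analysis, filled where the adjusted p was under 0.05, with a line at the value as reported. No change that was called as reported turned its sign, and CCL2 with double siRNA, at -0.34 to -0.13, lies closest to 0 among the called changes.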

How the data were processed

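Total RNA of siRNA-transfected U251 cells was hybridized to Affymetrix arrays, 1 array per sample, per the labels. The authors deposited log2 probe set levels, and per the labels' protocols the RNA was labelled by the standard method of the array maker. Background correction, summarization and normalization are not given in the sources used here. No 2 arrays held identical values, and 0 columns of sample values were left unused. The number of arrays limits the precision.

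The platform's table named 1 gene for 17313 of 19520 probe sets, several for 857 and none for 1293, and 57 were controls. All 6 symbols matched RefSeq by gene ID. The brightest probe set per gene was taken, genes under the 25th percentile of the mean were left out (ETV6 and NFKB1 kept), and group means were estimated by limma's lmFit with eBayes moderation (version 3.58.1, under R 4.3.3; 8 degrees of freedom among arrays and 3.41 from the prior). Tests were two-sided and adjusted by Benjamini and Hochberg over all genes of each of the 7 comparisons, with 0.05 as the threshold. A second fit took every single-gene probe set over the 25th percentile of their means (7.09), with those of ETV6 and NFKB1 kept. The fit was tested on simulated data with independent errors and few changed genes. These data differ in both array level and share of genes called, so that test does not bear on the calls here. With 3 arrays a side, exact permutation p-values stop at 0.1, so no such test was used. Intervals are 95% intervals from the fit.

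The 6 genes and the 9 other gene lists were chosen with earlier results of these data known. The genes named are the 6 genes, ETV6 and NFKB1, up to 4 genes per list and comparison with control siRNA with the smallest adjusted p among those called (for the glioma markers only in the closing section), and the 3 tested genes nearest in profile to each of the 6. The ITGB1 value with double siRNA was added after it was seen. Alternatives changed scaling, filter, probe set choice, array weights, variance prior, the samples in the fit, a replicate block and the arrays left out. Protein sequences were not used here.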

Additional observations from a re-analysis of the deposited data

Results flagged for a closer look

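For 4 of the 6 genes the effect of an siRNA differed with and without the other siRNA, by the interaction of the linear model. For VCAM1 the interaction was 1.27 (adjusted p = 0.000146): NFKB1 siRNA raised it by 1.51 in cells that also had ETV6 siRNA and gave 0.24 in cells that did not. For ACKR3 it was -0.92 (adjusted p = 0.000236), with -1.03 for NFKB1 siRNA in the presence of ETV6 siRNA and -0.11 in its absence. For PLAU it was -0.51 (adjusted p = 0.000158), with -0.91 in the presence of ETV6 siRNA and -0.40 in its absence. For CCL2 it was -0.35 (adjusted p = 0.033), with -0.89 in the presence of ETV6 siRNA and -0.54 in its absence. The interaction was called for 86.3% of all genes tested, so its call is common. All 4 rest on the 3 double siRNA arrays, which stood apart in spike-in level, median and ACTB 3′ minus 5′ difference. Those arrays also came from the cells given more siRNA in total. VCAM1 passed the level limit only through its double siRNA arrays, so its p-value is no support of its own. The ETV6 transcript was also 1.55-fold higher with double siRNA than with ETV6 siRNA alone (adjusted p = 0.000157). The part of the array differences, of the siRNA total and of this ETV6 difference in the 4 values was not tested.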

How the results depend on the processing

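Over 23 alternatives, 12 of them leaving out 1 array, 0 of the values of the 6 genes reversed a call. Of these values 37 lost a call, 11 gained one and 891 stayed on the same side of the threshold. Uncalled values among the 891 could change sign: ACKR3 with NFKB1 siRNA gave -0.11 as reported and up to 0.03 in an alternative. The changes of CXCL8 with ETV6 and double siRNA, of CCL2 and ACKR3 with ETV6 siRNA, of IL6 and PLAU with NFKB1 and double siRNA, and of VCAM1 with double siRNA were called in every alternative that tested them. For VCAM1 this is no support of its own, since it passed the level limit only through its double siRNA arrays. With every gene under the 50th percentile left out, CXCL8, ACKR3 and PLAU were the ones tested, and the calls among the 6 genes were 1 for NFKB1 siRNA against control, 3 for double siRNA against control, 2 for double against ETV6 siRNA, 2 for double against NFKB1 siRNA, 3 for ETV6 against NFKB1 siRNA and 2 for the interaction. That filter gave 4426, 4563 and 4418 genes called over all genes for double against ETV6 siRNA, double against NFKB1 siRNA and the interaction, against 6686, 6911 and 6698 as reported, because fewer genes were tested. With every probe set on its own the counts were 5136 for NFKB1 siRNA and 10299 for double siRNA against control, 11031 for double against ETV6 siRNA, 11478 for double against NFKB1 siRNA, 4285 for ETV6 against NFKB1 siRNA and 11051 for the interaction, over more features tested. With ETV6 siRNA against control 827 genes were called as reported, 2342 with array weights, 187 with only the groups compared, and 436 (without ETV6 siRNA replicate 1) to 959 (without control siRNA replicate 3) when 1 array was left out, with 469 without ETV6 siRNA replicate 3. With NFKB1 siRNA against control 3148 were called and 1855 with only the groups compared. Between ETV6 and NFKB1 siRNA 2709 were called, 4333 with array weights, and 1665 (without ETV6 siRNA replicate 2) to 3654 (without control siRNA replicate 3) when 1 array was left out. The cause of these shifts was not tested. The share of calls that were higher was 38.1% for NFKB1 siRNA against control, and 62.2% after each array was shifted to the same median or 57.5% after quantile normalization. It was 62.6% for ETV6 against NFKB1 siRNA, and 37.6% and 45% after those scalings. Same-numbered samples of different groups did not as a rule deviate together (r from -0.516 to 0.482, over 0.1 in 5 of 18 pairs, and in 11 of 36 pairs of different number). The highest r of all was 0.636, between control siRNA replicate 3 and ETV6 siRNA replicate 2. The latter gave -0.521 and -0.516 with control siRNA replicates 1 and 2. The labels name no batch, and the source of this was not tested. Without both arrays 814 genes were called with ETV6 siRNA against control. With the number as a replicate block 760 genes were called for ETV6 siRNA, 3195 for NFKB1 siRNA and 6283 for double siRNA against control, the IL6 and VCAM1 differences between ETV6 and NFKB1 siRNA were not called (adjusted p = 0.0517 and 0.0567), and ACKR3 was called between double and NFKB1 siRNA (-0.21, adjusted p = 0.0298). A fit of only the groups compared gives no interaction. The planned description of protein sequences was not run. VCAM1 and IL6 lay near the level limit, where low signal limits small differences.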

Other observations

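Beside the rise of IL6 and of its signalling chain IL6ST with double siRNA, SOCS3, which encodes the feedback inhibitor of that receptor, fell with double siRNA (-0.80, adjusted p = 1.76e-05) and gave -0.20 with ETV6 siRNA (adjusted p = 0.249) and -0.12 with NFKB1 siRNA (adjusted p = 0.338). Among the NF-kB regulators CHUK, which encodes the kinase IKK alpha, rose with double siRNA (1.16, adjusted p = 1.87e-05), while the NF-kB subunit RELA (-0.66, adjusted p = 6.24e-05) and the inhibitor NFKBIA (-0.48, adjusted p = 6.11e-05) fell. These 4 genes were chosen after their values were seen. Their double siRNA calls were lost in 0 of the alternatives that tested them, but these refit the same arrays and are no separate support. With double siRNA 80.9% of all genes were called (31.9% higher and 49% lower). Whether IL6, IL6ST and SOCS3 changed as a pathway was not tested.

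Of the 10 measured markers of the glioma cells themselves 5 were called with double siRNA, where 80.9% of all genes were. With double siRNA the intermediate filament genes NES (-1.16, adjusted p = 1.12e-06) and GFAP (-0.54, adjusted p = 7.53e-05) and the glutamate transporter SLC1A3 (-0.28, adjusted p = 0.0043) fell, and the calcium-binding protein S100B rose (0.38, adjusted p = 0.000705). With NFKB1 siRNA SLC1A3 (-0.78, adjusted p = 2.07e-05) fell and S100B rose (0.49, adjusted p = 0.000552), and the stem cell factor SOX2 gave a call at -0.17 (adjusted p = 0.0113) that was lost with the mean of its 3 probe sets (-0.05, adjusted p = 0.524), one of which read 0.10, with only the groups compared (adjusted p = 0.0617) and after each array was shifted to the same median. With ETV6 siRNA CHI3L1 rose (0.68, adjusted p = 0.00826), a call lost with only the groups compared. GFAP (-0.30) and FABP7 (-0.15) were called with ETV6 siRNA as reported. The GFAP call was lost without control siRNA replicate 1 or 2, ETV6 siRNA replicate 2 or 3, NFKB1 siRNA replicate 2 or double siRNA replicate 1, and the FABP7 call without any array other than NFKB1 siRNA replicate 3.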
